A study of Mus musculus with 8 samples.

Results

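The genes examined encode the constitutive proteasome, the protease complex that degrades ubiquitin-tagged proteins in every cell. Members were taken by symbol as all genes named Psma, Psmb, Psmc or Psmd with a number, leaving out the immunoproteasome genes Psmb8, Psmb9 and Psmb10 and all pseudogenes. This gave 36 of the 54146 genes in the files, with 8 Psma, 8 Psmb, 6 Psmc and 14 Psmd genes. Their messages were counted in primary mouse cortical astrocytes by RNA-seq of 8 libraries. There were 2 biological replicates of each knockdown, control KD and GSTM1 KD, without stimulation (the basal level) and as many after 6 h with TNF-α at 50 ng/ml. GSTM1 is a glutathione S-transferase, and the study asked how its reduction alters the program of genes that astrocytes switch on with TNF-α, an inflammatory cytokine.

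The cells came from the cortices of newborn C57BL/6 mice. All 4 groups carried a lentiviral shRNA, either against Gstm1 or non-silencing, passed through puromycin selection and were depleted of CD11b-positive microglia. Each target has its own hairpin, so a change through GSTM1 and a change through the hairpin itself cannot be told apart. The sources do not say whether replicates with one number share a culture, so p-values measure the spread between these libraries.

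The proteasome core, the 20S particle, is a stack of rings in which α subunits (Psma) form the gate and β subunits (Psmb) line the chamber. Psmb6, Psmb7 and Psmb5 carry the proteolytic sites, with caspase-like, trypsin-like and chymotrypsin-like activity. The 19S particle caps the core: its base holds the ATPases that unfold substrates (Psmc) and the scaffold and ubiquitin-binding subunits Psmd1, Psmd2 and Psmd4, and its lid holds the deubiquitinase Psmd14. During inflammation Psmb9, Psmb10 and Psmb8 replace Psmb6, Psmb7 and Psmb5 to form the immunoproteasome. Cells with too little proteasome activity are known to raise the constitutive genes together through the transcription factor NRF1, the product of Nfe2l1, which acts at antioxidant response elements after it has been cut by the protease DDI2 and deglycosylated by NGLY1.

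The name of constitutive subunits did not hold for all members. Psmd5, Psmd9 and Psmd10 encode chaperones that help to assemble the 19S base and leave the finished particle. Psma8, known from the testis, and Psmb11, known from the thymus, were close to 0, at a mean of 0.048 and 0.071 TPM (a level scaled for gene length), and failed the filter on low counts. The other 34 members were tested in every comparison.

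Promoter sequences are shown for Psmb6, the member that changed, and Psmb3, the next in order, because NRF1 acts through motifs in such windows. Both are from RefSeq on GRCm38.p6 and run 5′ to 3′ up to the base before the start site. Capitals mark matches, on either strand, to an antioxidant response element (TGACNNNGC), an interferon-stimulated response element core (GAAA, any 2 bases, GAAA) or a CCAAT box (CCAAT). Psmb6 lies on the plus strand of chromosome 11 and its window is chr11:70525107-70525356. Psmb3 lies on the plus strand of the same chromosome and its window is chr11:97703184-97703433.
Psmb6: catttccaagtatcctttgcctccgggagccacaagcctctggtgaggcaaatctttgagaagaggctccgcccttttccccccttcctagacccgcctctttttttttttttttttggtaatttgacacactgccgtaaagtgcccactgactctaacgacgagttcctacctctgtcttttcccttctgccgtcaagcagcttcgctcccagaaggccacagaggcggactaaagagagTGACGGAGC
Psmb3: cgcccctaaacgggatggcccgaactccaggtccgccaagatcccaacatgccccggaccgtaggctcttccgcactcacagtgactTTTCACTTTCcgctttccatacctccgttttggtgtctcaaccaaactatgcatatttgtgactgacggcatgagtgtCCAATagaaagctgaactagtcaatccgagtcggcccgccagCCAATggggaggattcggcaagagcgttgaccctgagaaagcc
Psmb6 had its single match, an antioxidant response element, in the last 9 bases before the start. Psmb3 had 2 CCAAT boxes and 1 interferon-stimulated response element core on the minus strand, and no antioxidant response element in this window.

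The antioxidant response element was found in 5 of the 31 windows available for 29 members (16.1%), and in 12.4% of the 32851 windows of all genes, counting 250 bases before to 50 after the start. The motif can hold TGACTCA, the letters of an AP-1 site, but none of the 5 member matches did. The 5 matches are shown with their flanks to compare them, with the motif in capitals as it reads on the gene's strand.
Psmb6, at chr11:70525332-70525372: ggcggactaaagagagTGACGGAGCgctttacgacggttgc
Psmb5, minus strand, at chr14:54618018-54618058: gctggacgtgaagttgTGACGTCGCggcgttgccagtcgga
Psmd9, at chr5:123228143-123228183: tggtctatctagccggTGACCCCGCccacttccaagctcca
Psmc6, at chr14:45329581-45329621: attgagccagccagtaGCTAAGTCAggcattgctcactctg
Psmd12, at chr11:107479278-107479305: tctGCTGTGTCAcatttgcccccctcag
The Psmb6, Psmb5 and Psmd9 matches began 9, 47 and 31 bases before the start, and those of Psmc6 and Psmd12, on the opposite strand, began 227 and 247 bases before it. The interferon-stimulated response element core was in 9.68% of member windows (Psmb3, Psmd4 and Psmd9) and 3.44% of all windows, and in none of the 3 windows of Psmb8, Psmb9 and Psmb10. CCAAT boxes were in 38.7% and 37.4%. Member windows held a median of 20 CG dinucleotides, against 7 over all windows. These matches are descriptions of letters, and binding was not measured.

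Library totals ran from 17349682 to 34434615 expected counts. Gstm1, the target, was at 231, 377, 209 and 391 CPM (counts scaled to a common library size) in the control KD libraries and at 23.3 to 31.4 CPM in the GSTM1 KD libraries. All 8 astrocyte markers were detected, with a summed level of 1448 to 3622 TPM in control KD and 3458 to 5512 TPM in GSTM1 KD at the basal level. After TNF-α the same sums were 1422 to 3487 and 3332 to 5236 TPM. Replicate 1 of control KD was the lowest library in both states. Of the microglial markers 6 of 7 were under 1 TPM, and Mog and Cldn5, for mature oligodendrocytes and endothelium, were at or near 0. The fibroblast list summed to 81.3 to 140 TPM in control KD and 50.7 to 85.9 TPM in GSTM1 KD, and oligodendrocyte-lineage markers to 448 to 595 and 340 to 441 TPM. The ependymal and choroid plexus list summed, without stimulation, to 76.3 and 118 TPM in the control KD libraries against 102 and 118 TPM in the GSTM1 KD libraries. After TNF-α it summed to 65.1 and 77.4 TPM against 93.5 and 104 TPM, and the groups did not overlap. Neuronal markers summed to 164 to 230 TPM over all libraries. Of the single markers, Folr1 of the ependymal and choroid plexus list was called higher in GSTM1 KD, by 2.67 and 2.78 on the log2 scale without and with TNF-α. Folr1 was a weak message that rested on 3 to 17 counts in the control KD libraries. Its means there were 0.99 and 1.27 TPM, against 6.2 and 5.5 TPM in GSTM1 KD. Called lower in both states were S100b of the astrocyte list (−1.44 and −1.71), Col1a2 of the fibroblast list (−1.13 and −0.99) and Olig2 of the oligodendrocyte lineage (−0.85 and −1.14). Olig1 had −0.40 without TNF-α (adjusted p = 0.083) and was called lower with it (−0.44). Of the 5 oligodendrocyte-lineage markers tested, 2 had values above 0 in each state, up to 0.32 without and 0.24 with TNF-α. Of the 4 fibroblast markers tested, Dcn was above 0, with 0.15 and 0.35. None of these higher values passed. Of the astrocyte list S100b was the 1 gene called, at 3.38 to 11.4 TPM on average per group, while Gfap, the most abundant gene of the list with a mean of 1456 TPM in control KD and 3259 TPM in GSTM1 KD at the basal level, had 1.10 and 1.08 (adjusted p = 0.234 and 0.218). Aldoc, Aldh1l1 and Slc1a2 had 1.11, 1.05 and 0.67 at the basal level and did not pass. Sox9 of the astrocyte list went the other way, with −0.50 without TNF-α and −0.41 with it. Its GSTM1 KD libraries lay below its control KD libraries in both states, but it did not pass. Aqp4 had −0.08 and −0.02, Slc1a3 had 0.0065 and −0.03, and neither passed. Of the 8 astrocyte markers, 5 had values above 0 without TNF-α and 4 with it. Adjusted p for the calls ran from 0.0101 to 0.0497. The part of these lists in the member values was not tested. In bulk RNA, fewer cells of a type and less RNA per cell cannot be told apart.

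The proteasome genes were among the more abundant messages of these astrocytes. The 34 members had a median level of 192 TPM, higher than 93.7% of the 13789 genes with a mean of at least 1 TPM. Together the members made up 0.661% to 0.765% of the messages in a library. Their sum was 7637 and 6749 TPM in unstimulated control KD, where GSTM1 KD had 6901 and 6614 TPM, and 7648 and 6964 TPM against 7026 and 6850 TPM after TNF-α. The groups overlapped in both states, since the sum of control KD replicate 2 lay below that of GSTM1 KD replicate 1. On TMM-scaled CPM per kilobase, which corrects for the composition of the libraries, they did not overlap: control KD had 3927 to 4470 and GSTM1 KD 3718 to 3849 at the basal level, and 4189 to 4501 against 3880 to 4090 after TNF-α.

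**Figure D1:**
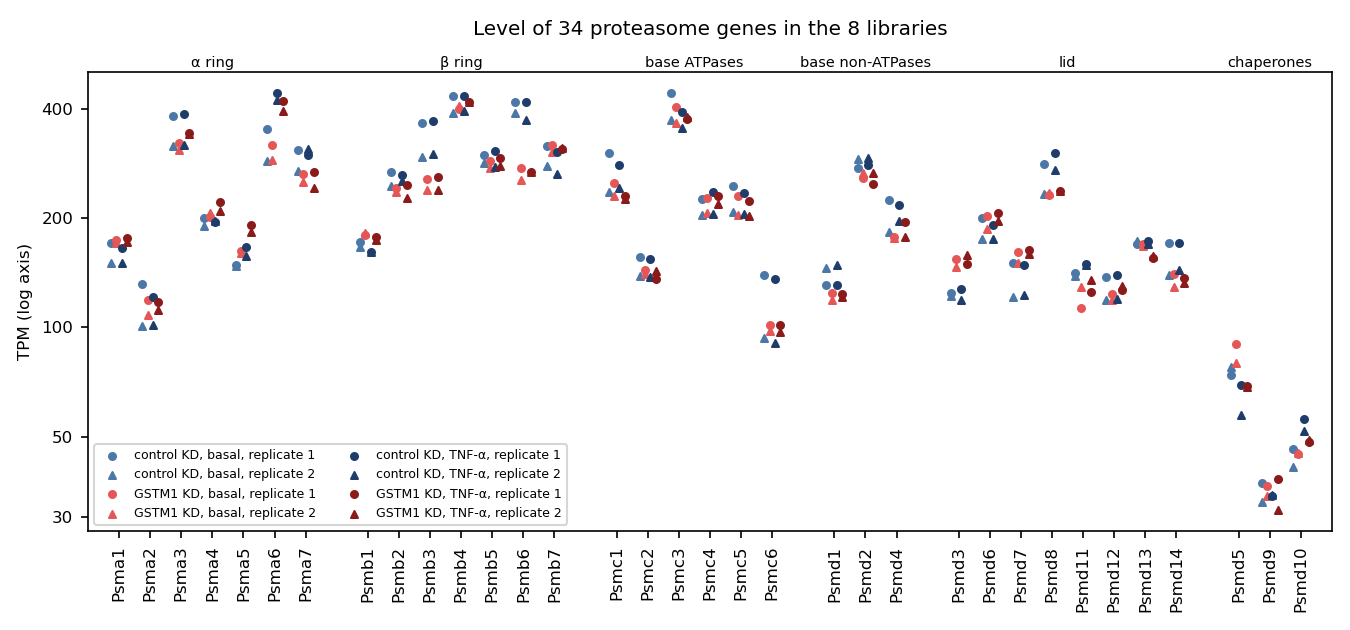
Level of each of 34 proteasome genes in TPM on a log axis, with one point per library, coloured by group and shaped by replicate. The 3 assembly chaperones lie below all subunits of the particle.

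Subunits that are needed in equal numbers did not have equal messages. Over the 8 libraries the highest member, Psmb4, a β subunit without a proteolytic site, had 411 TPM and the lowest of the 31 subunits of the finished particle, Psmc6, 107 TPM, a ratio of 3.84. The median level was 290 TPM for the 7 β subunits, 219 TPM for the 6 ATPases, 203 TPM for the 7 α subunits, 193 TPM for the 3 other base subunits and 146 TPM for the 8 lid subunits. The 3 assembly chaperones were the 3 lowest of the 34 members tested, with Psmd5 at 73.3 TPM, Psmd10 at 47.8 TPM and Psmd9 at 35.0 TPM. These were also the places in the order where neighbours separated: the range over libraries of Psmc6 did not overlap that of Psmd5, nor Psmd5 that of Psmd10, nor Psmd10 that of Psmd9. All other neighbours in the order overlapped over the 8 libraries.

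Member levels varied slightly less between replicates than those of genes at similar levels. In unstimulated control KD, replicate 1 was still above replicate 2 for 31 of 34 members, with a median log2 ratio of 0.21 in CPM. The median coefficient of variation within groups was 6.67% for the 34 members, against 8.42% over the 4672 genes with levels in the range of the members. Over all 8 libraries it ran from 4.04% for Psmb5 to 21.8% for Psmb6, the most variable member, followed by Psmb3 with 18.2%, Psmc6 with 17.9% and Psma6 with 17.1%.

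At the basal level, GSTM1 KD astrocytes had less Psmb6 message than control KD astrocytes, and no other member passed the test. Psmb6, the caspase-like β1 subunit, spans chr11:70525367-70527858 on GRCm38 and overlaps no other annotated gene. It was at 139 and 126 CPM in control KD and at 86.5 and 78.6 CPM in GSTM1 KD, and it rested on 1492 or more counts in every library. Both knockdown libraries lay below both control libraries. Its level was 0.622 times that of control KD, a log2 fold change of −0.69 (SE 0.11, 95% interval −0.97 to −0.41, adjusted p = 0.0275 by edgeR's quasi-likelihood test). Of the 14899 genes tested, 5.62% were called lower, so that 1 of 34 members lower and 0 higher is not more than that share.

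Psmb3, a structural β subunit, was second by p. It was at 116 and 91.2 CPM in control KD and at 77.4 and 70.6 CPM in GSTM1 KD. The groups did not overlap, but the log2 fold change of −0.49 (SE 0.15) had an adjusted p of 0.0892 by edgeR and did not pass. It passed with DESeq2 (adjusted p = 0.0479) and without the filter on low counts (adjusted p = 0.00336). It also passed with a replicate block, which pairs libraries by replicate number, although no source says what that number marks. The block fit called 31.6% of all genes. Psmd11, a lid scaffold, came next, at 168 and 162 CPM in control KD and at 131 and 144 CPM in GSTM1 KD, with a log2 fold change of −0.27 (SE 0.11, adjusted p = 0.161), on counts that were fractional in 8 libraries. Psmb6 and Psmb3 had the shortest effective lengths of all members, 559 and 534 bases, while genes under 600 bases had a median log2 fold change of −0.03 over 925 genes and −0.11 over the 490 of them at 30 TPM or more. The part of length in the result was not tested.

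The other proteolytic subunits, Psmb5 and Psmb7, did not pass. Psmb5 was at 118 and 109 CPM in control KD and at 107 and 101 CPM in GSTM1 KD, which gave a log2 fold change of −0.12 (95% interval −0.39 to 0.14). Psmb7 was at 173 and 150 CPM in control KD and at 165 and 157 CPM in GSTM1 KD, which gave a log2 fold change of −0.01 (95% interval −0.30 to 0.29). The deposited counts of Psmb5 and Psmb7 were fractional in 6 and 8 libraries, that is, reads were divided among genes, and those of Psmb6 and Psmb3 were whole in every library.

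Most members had fitted values slightly below 0 at the basal level. The value was negative for 26 of 34 members (76.5%) and for 50.3% of all genes, with a median of −0.12 against −0.0020. All 6 ATPases and the 3 other base subunits were below 0, with medians of −0.15 and −0.25, as were 6 of 7 β subunits, 6 of 8 lid subunits and 4 of 7 α subunits. The highest value was 0.23 for Psmd3, a lid scaffold at 141 and 136 CPM in control KD and 166 and 158 CPM in GSTM1 KD. Both GSTM1 KD libraries lay below both control libraries for 14 members (41.2%, against 31.2% of all genes) and above them for 3 (8.82%, against 32.3%). The median rested on 1 library: without control KD replicate 1 it was −0.0033. That library was above control KD replicate 2 for 31 of 34 members, with a median log2 ratio of 0.21. In unstimulated GSTM1 KD replicate 1 was above replicate 2 for 27 members (median 0.07). After TNF-α it was so for 27 members in control KD and 29 in GSTM1 KD (medians 0.12 and 0.06). Unstimulated control KD replicate 1 had the lowest astrocyte marker sum of the unstimulated libraries, whose part in the values was not tested. Without control KD replicate 2, 9 of 34 members passed, all lower, in a fit that called 17% of 15352 genes lower and 5256 genes in all.

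The intervals bound how large a change could have been missed. The 95% interval lay within 2-fold for all 34 members and within 1.5-fold for 29 of them. Over all genes tested, 9179 and 4564 of 14899 intervals did so.

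**Figure D2:**
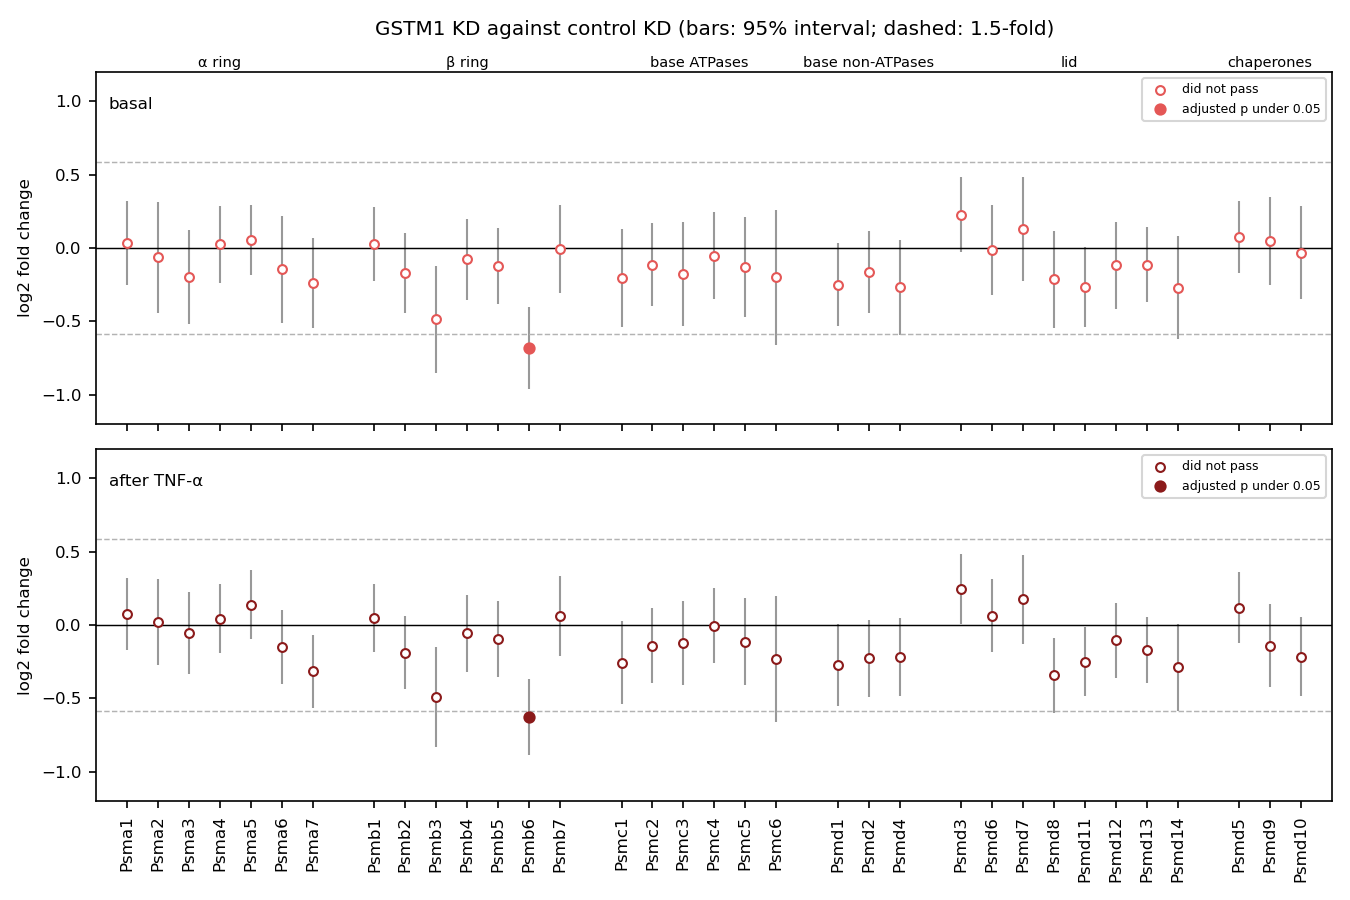
Log2 fold change of GSTM1 KD against control KD for 34 proteasome genes at the basal level (top) and after TNF-α (bottom), with 95% intervals as bars and 1.5-fold as dashed lines. Psmb6 is the filled point in both panels at −0.69 and −0.62, and the other 33 members did not pass.

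After TNF-α stimulation Psmb6 was again lower in GSTM1 KD and no other member passed. It was at 138 and 123 CPM in control KD and at 86.2 and 85.7 CPM in GSTM1 KD, 0.649 times the control level. The log2 fold change was −0.62 (SE 0.10, 95% interval −0.88 to −0.36, adjusted p = 0.0221 by edgeR), where 8.92% of 14593 genes were called lower. Psmb6 passed in both states under each alternative that kept all libraries. It also passed without either control library, in fits where the lone control library is assumed to vary like the GSTM1 KD libraries. Without either GSTM1 KD library its log2 fold change stayed between −0.76 and −0.62 in both states but the adjusted p rose to between 0.151 and 0.287. In those fits the lone knockdown library is assumed to vary like the control libraries, and 0 to 94 of all genes passed.

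Psmb3 was at 117 and 94.5 CPM in control KD and at 79.8 and 73.3 CPM in GSTM1 KD after TNF-α, a log2 fold change of −0.49 (SE 0.14, adjusted p = 0.0638), and again passed with DESeq2 (adjusted p = 0.0357) and without the filter (adjusted p = 0.00263). Psmd8, a lid subunit, was at 205 and 187 CPM in control KD and at 159 and 156 CPM in GSTM1 KD, with a log2 fold change of −0.34 (SE 0.10, adjusted p = 0.0757). Over the fits that left out 1 library, the log2 fold change of Psmd8 ran from −0.41 to −0.27. With a replicate block Psma7, Psmb3 and Psmd8 passed along with Psmb6, in a fit that called 29.5% of 14593 genes. For Psmb5 and Psmb7 the log2 fold changes were −0.09 (95% interval −0.35 to 0.17) and 0.06 (95% interval −0.21 to 0.34).

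The fitted value was negative for 24 of 34 members, with a median of −0.13 against −0.01 over all genes. GSTM1 KD lay below control KD in both libraries for 16 members (47.1%, against 31.9% of all genes) and above for 7 (20.6%, against 34.7%). Without control KD replicate 1 the median was −0.03, and without replicate 2 it was −0.17. Members kept their sign across states in 30 of 34 cases, with 23 below 0 and 7 above 0 in both. These were 67.6% and 20.6%, against 44.5% and 42.9% of the 14379 genes tested in both. No source says whether libraries of the 2 states came from the same cultures. Differences of replicate 1 from replicate 2 over 15332 genes correlated between the states at 0.69 in control KD and 0.46 in GSTM1 KD. Between the knockdowns they correlated at 0.22 to 0.34. The 2 states therefore cannot be counted as independent repeats. In 12 members GSTM1 KD lay below control KD without overlap in both states (Psma7, Psmb2, Psmb3, Psmb6, Psmc1, Psmd1, Psmd2, Psmd4, Psmd8, Psmd11, Psmd13 and Psmd14), and in 3 it lay above (Psma5, Psmd3 and Psmd5). These were 35.3% and 8.82% of the members, against 25.3% and 26.6% of all genes. All 34 intervals lay within 2-fold and 29 within 1.5-fold, against 8937 and 4507 of 14593 genes.

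The gene of the proteasome's own transcription factor was lower in GSTM1 KD, by more than any member. Nfe2l1 was at 573 and 553 CPM in control KD and at 296 and 268 CPM in GSTM1 KD without stimulation. After TNF-α it was at 716 and 670 CPM in control KD and at 341 and 328 CPM in GSTM1 KD. Its log2 fold change was −1.0 (SE 0.12, adjusted p = 0.0183) at the basal level and −1.08 (SE 0.11, adjusted p = 0.0111) after TNF-α, so that its level was 0.501 and 0.474 times that of control KD. Ddi2, the protease that cuts NRF1, was at 68.0 and 62.0 CPM against 41.3 and 43.4 CPM at the basal level, and at 71.3 and 65.7 CPM against 39.5 and 42.9 CPM after TNF-α. Its log2 fold changes were −0.62 (SE 0.11, adjusted p = 0.0298) and −0.76 (SE 0.11, adjusted p = 0.0166), and −0.98 and −1.15 when effective lengths entered the fit.

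Ngly1 was higher in GSTM1 KD after TNF-α. It was at 35.3 and 40.0 CPM in control KD and at 48.5 and 47.7 CPM in unstimulated GSTM1 KD, and at 30.2 and 33.2 CPM against 43.6 and 48.7 CPM after TNF-α. After TNF-α the log2 fold change of GSTM1 KD against control KD was 0.52 (SE 0.12, adjusted p = 0.0415), while 0.35 at the basal level did not pass (adjusted p = 0.106). Nfe2l2, which encodes the related factor NRF2, did not pass, with 0.12 (adjusted p = 0.531) without and 0.21 (adjusted p = 0.246) with TNF-α. Of the 6 other genes listed for this axis apart from Ddi2, which are Nfe2l1, Nfe2l2, Ngly1 and, for NRF1's retrieval from the endoplasmic reticulum, Vcp, Syvn1 and Sel1l, only Nfe2l1 was called at the basal level, and only Nfe2l1 and Ngly1 after TNF-α, where 8.92% of all genes were lower and 7.26% higher. The calls of Nfe2l1, Ddi2 and Ngly1 were lost without either GSTM1 KD library (adjusted p from 0.0806 to 0.317), and that of Ngly1 also with effective lengths (adjusted p = 0.0624).

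**Figure D3:**
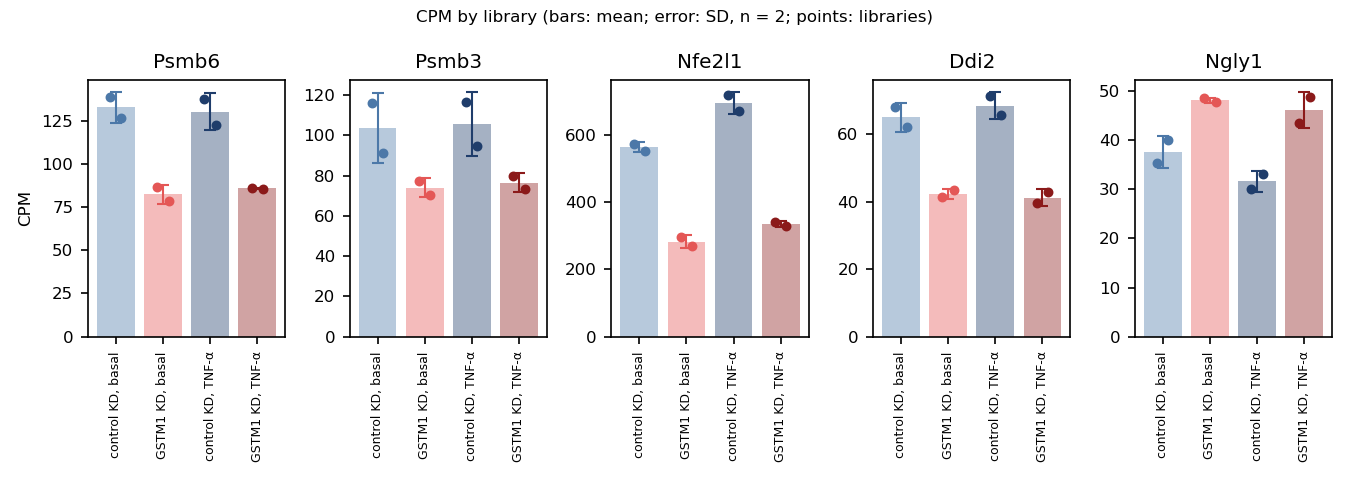
CPM of Psmb6, Psmb3, Nfe2l1, Ddi2 and Ngly1 in each group, with the mean as bar, SD as error bar (n = 2) and libraries as points. Both GSTM1 KD libraries lie below both control KD libraries of their state for Psmb6, Psmb3, Nfe2l1 and Ddi2, and above them for Ngly1.

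Ubqln2 and Rad23b, which encode proteins that carry ubiquitin-tagged substrates to the proteasome, also had lower messages in GSTM1 KD, with the basal value of Rad23b not past the test. Ubqln2 was at 136 and 135 CPM against 93.2 and 98.2 CPM at the basal level, a log2 fold change of −0.51 (SE 0.10, adjusted p = 0.0379), and had −0.55 (SE 0.10, adjusted p = 0.0244) after TNF-α. Rad23b had −0.51 at the basal level (adjusted p = 0.0733) and was lower after TNF-α at −0.53 (SE 0.13, adjusted p = 0.0452), with 428 and 368 CPM in control KD and 291 and 269 CPM in GSTM1 KD. Both genes lost their calls without either GSTM1 KD library (adjusted p from 0.146 to 0.337), and Rad23b also with library size alone (adjusted p = 0.0553) and with effective lengths (adjusted p = 0.0522).

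The remaining proteasome lists held no call between GSTM1 KD and control KD in either state, where 10.2% and 16.2% of all genes were called. These were the 3 immunosubunits, the 5 activators and inhibitor (Psme1 to Psme4 and Psmf1), the 5 chaperones of the 20S core (Psmg1 to Psmg4 and Pomp), 5 other factors of the 19S particle (Adrm1, Sem1, Usp14, Uchl5 and Txnl1) and the 4 ubiquitin genes. At the basal level Psmb8, Psmb9 and Psmb10 had log2 fold changes of −0.38, 0.26 and 0.06. After TNF-α the values were 0.02, 0.61 and 0.37, with adjusted p from 0.151 to 0.961. Psmb9 and Psmb10 passed as higher after TNF-α without the filter (adjusted p = 0.0083 and 0.0383). Without control KD replicate 2, which leaves a lone control library, their log2 fold changes were 0.87 and 0.54.

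None of the constitutive genes passed the test for a response to TNF-α, while immunoproteasome genes rose. In control KD 0 of 34 members passed, where 2.63% of 15332 genes did, and in GSTM1 KD 0 of 34 passed, where 2.65% did, both by edgeR on all 8 libraries. At an unadjusted p under 0.05 there were 3 members in each, where 12.5% and 10.9% of all genes were so, and DESeq2 called 0 in each. With a replicate block 1 member, Psma6, passed in each, in fits that called 6.44% and 5.27% of all genes. The median response of the members was 0.02 in control KD, while GSTM1 KD had 0.06, with −0.02 and −0.0071 over all genes, and in control KD the sign turned with library size alone (−0.0094) and without the filter (−0.0028). The 95% interval lay within 1.5-fold for 33 of 34 members in each.

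Psma6, an α subunit, had the highest response of the members. It rested at 169 and 134 CPM in control KD and reached 210 and 202 CPM after TNF-α, and went from 144 and 130 CPM to 196 and 182 CPM in GSTM1 KD. The stimulated libraries lay above the unstimulated ones in both. The log2 fold change was 0.44 (SE 0.13, adjusted p = 0.159) in control KD and 0.46 (SE 0.13, adjusted p = 0.155) in GSTM1 KD and did not pass, but without the filter on low counts it did, with adjusted p of 0.0344 and 0.0192. With a replicate block it passed in control KD and GSTM1 KD (adjusted p = 0.0220 and 0.0216), although no source says what a replicate number marks. In GSTM1 KD it also passed when the fit held its 4 libraries alone (adjusted p = 0.0422). Psma6 spans chr12:55384222-55418454 on GRCm38. Nfkbia, a gene of the NF-κB inhibitor IκBα that was looked up after the values were seen, lies 70956 bases from it, and its log2 fold changes with TNF-α were 3.31 and 3.81. The nearest tested gene, 1110008L16Rik at 1689 bases, had 0.45 and 0.21, and Ppp2r3c and Srp54c, at 81224 and 120386 bases, had 0.06 and 0.10, and 0.09 and 0.17, and none of these 3 passed.

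The assembly chaperones Psmd5 and Psmd10 were next by p in control KD, in opposite directions, while Psmd9 had 0.10 (SE 0.10, adjusted p = 0.875). Psmd5 was at 111 and 116 CPM before and 98.0 and 90.2 CPM after TNF-α in control KD, a log2 fold change of −0.27 (SE 0.08, adjusted p = 0.181). In GSTM1 KD it was at 118 and 121 CPM before and 105 and 103 CPM after, a log2 fold change of −0.20 (SE 0.08, adjusted p = 0.403). Psmd10, the oncoprotein gankyrin, was at 32.4 and 28.5 CPM before and 39.1 and 36.8 CPM after TNF-α in control KD, with 0.32 (SE 0.10, adjusted p = 0.215). Psma5 was second in GSTM1 KD, at 91.4 and 89.7 CPM before and 111 and 105 CPM after, with 0.25 (SE 0.08, adjusted p = 0.21). None of the 3 passed.

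The stimulated libraries lay above the unstimulated ones without overlap for 6 members in control KD (17.6%, against 16.2% of all genes) and for 15 in GSTM1 KD (44.1%, against 22.4%). They lay below for 1 member, Psmd5, in each, against 18.3% and 22.2% of all genes. The responses of the 2 knockdowns were compared directly as the difference of the responses, in which 0 of 34 members and 0% of 15332 genes passed by edgeR. At an unadjusted p under 0.05 there were 0 members and 295 genes, and DESeq2 called 27 genes, none of them a member. The smallest p among members were those of Psmd9, Psmd10 and Psma3, with differences of −0.16 (SE 0.14), −0.16 (SE 0.14) and 0.17 (SE 0.16). The median difference was 0.04, against 0.02 over all genes.

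**Figure D4:**
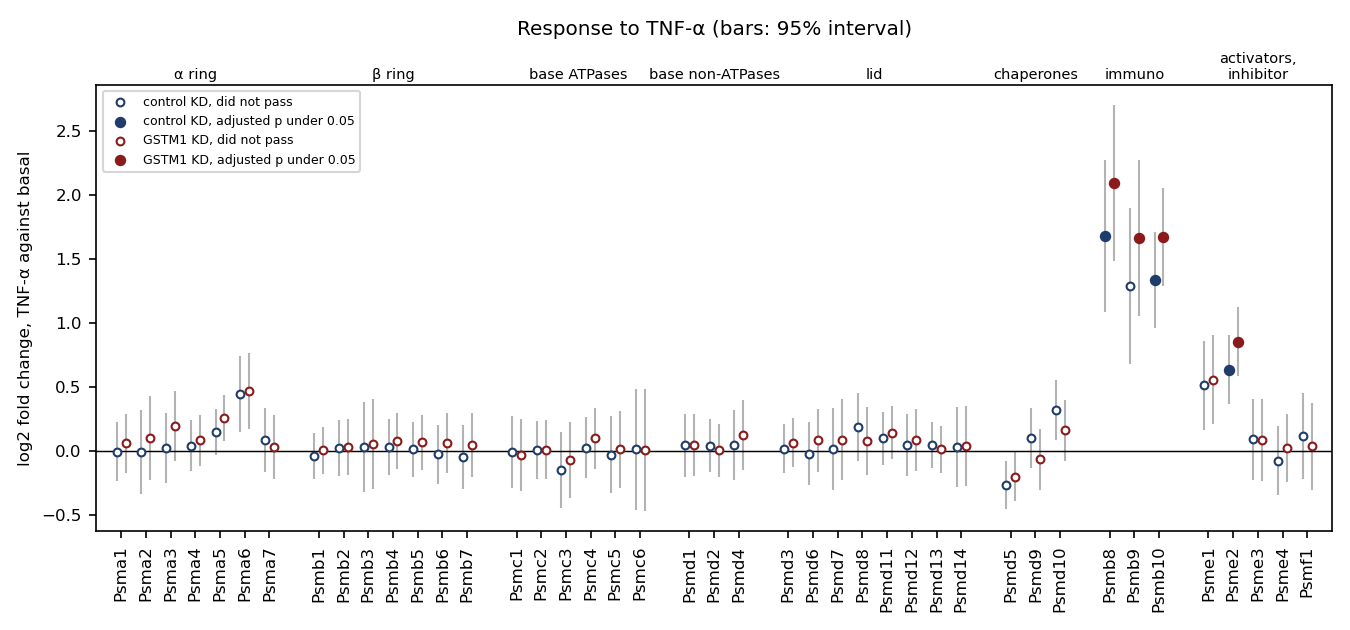
Log2 fold change after TNF-α against the basal level in control KD and GSTM1 KD, with 95% intervals as bars, for 34 constitutive genes, the 3 immunosubunits and the activators and inhibitor. The constitutive genes lie between −0.27 and 0.46, and Psmb8, Psmb9 and Psmb10 between 1.28 and 2.09.

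Psmb8 was at 14.9 and 21.2 CPM before and 46.4 and 68.9 CPM after TNF-α in control KD, and went from 13.4 and 14.4 CPM to 68.0 and 50.3 CPM in GSTM1 KD. Its log2 fold changes were 1.67 (SE 0.25, adjusted p = 0.0187) and 2.09 (SE 0.26, adjusted p = 0.00745). Psmb10 rose by 1.33 (SE 0.16, adjusted p = 0.00807) and 1.67 (SE 0.16, adjusted p = 0.00294). Psmb9 had 1.28 (SE 0.26, adjusted p = 0.054) in control KD. There it passed with library size alone (adjusted p = 0.0452), with DESeq2 (adjusted p = 0.000468), without the filter (adjusted p = 1.41e-07) and with a replicate block. In GSTM1 KD it rose by 1.66 (SE 0.26, adjusted p = 0.0207). The difference of its 2 responses was 0.38 (SE 0.36) and did not pass. Psme2, a subunit of the PA28 activator that is induced with the immunoproteasome, rose by 0.63 (SE 0.11, adjusted p = 0.0343) and 0.85 (SE 0.11, adjusted p = 0.0105). In control KD the call of Psme2 was lost without any 1 of the 4 libraries (adjusted p from 0.0615 to 0.151), with library size alone (adjusted p = 0.0603) and with 4 libraries only (adjusted p = 0.143). In GSTM1 KD it was lost without either unstimulated library or replicate 1 after TNF-α (adjusted p from 0.0889 to 0.135). The call of Psmb8 was lost in control KD without unstimulated replicate 1, without stimulated replicate 2 or with 4 libraries only (adjusted p from 0.0647 to 0.133), and in GSTM1 KD without either unstimulated library (adjusted p of 0.104 and 0.0921). That of Psmb9 in GSTM1 KD was lost without either unstimulated library or stimulated replicate 1 (adjusted p from 0.123 to 0.187), and those of Psmb10 in 1 setting each, at an adjusted p of 0.0541 with 4 libraries only in control KD and 0.0545 without unstimulated replicate 2 in GSTM1 KD. The constitutive partners of these genes had values near 0: in control KD −0.03 for Psmb6, −0.05 for Psmb7 and 0.01 for Psmb5, and in GSTM1 KD 0.06, 0.04 and 0.06. Nfe2l1 had 0.30 (adjusted p = 0.205) and 0.25 (adjusted p = 0.373), and passed in control KD with a replicate block (adjusted p = 0.0438).

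The share of each proteolytic site's message that came from the immunosubunit was higher after TNF-α in both knockdowns. Per length, Psmb10 made up 23.9% ± 0.552 (SD, n = 2) of the pair Psmb7 and Psmb10 in control KD and 40.7% ± 4.35 after TNF-α. In GSTM1 KD it was 21.8% ± 1.66 and 43.9% ± 4.48. Psmb8 made up 11.3% ± 2.92 of its pair with Psmb5 in control KD and 28.2% ± 6.84 after TNF-α, and 9.49% ± 1.56 and 29.6% ± 2.31 in GSTM1 KD. In these 2 pairs the control KD and GSTM1 KD groups overlapped after TNF-α. At the basal level those of Psmb8 overlapped, and those of Psmb10 did not, where both GSTM1 KD libraries (22.9% and 20.6%) lay under both control KD libraries (24.3% and 23.5%). The mean effective length of Psmb10 was 661 bases in control KD and 770 bases in GSTM1 KD, and its CPM overlapped between these groups, with a log2 fold change of 0.06.

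In the pair of the caspase-like site the 2 knockdowns did not overlap in either state. Psmb9 made up 2.06% and 2.74% of the pair Psmb6 and Psmb9 in control KD, against 4.02% and 5.17% in GSTM1 KD, without stimulation. After TNF-α it made up 4.42% and 6.60% in control KD, against 13.5% and 9.66% in GSTM1 KD. The GSTM1 KD libraries lay above the control KD libraries in both states. The message of Psmb6 was 41.5 ± 8.45 times that of Psmb9 without stimulation in control KD, against 21.1 ± 3.93 times for GSTM1 KD, and 17.9 ± 5.29 and 7.88 ± 2.09 times after TNF-α (SD, n = 2). No test was made of these shares.

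**Figure D5:**
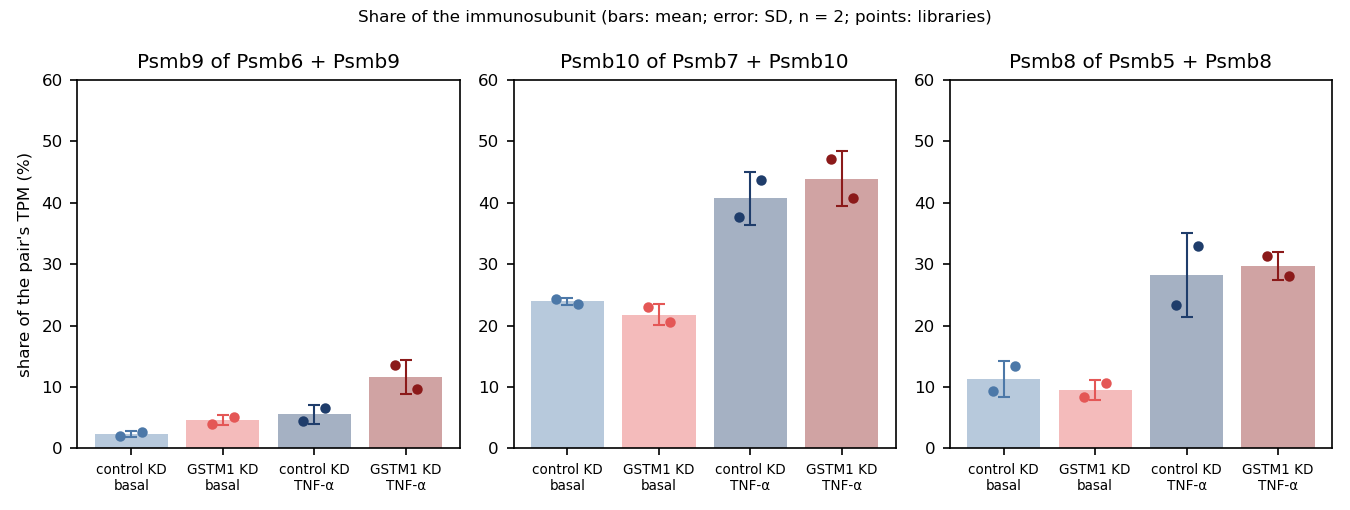
Share in percent of the immunosubunit in the summed TPM of each catalytic pair, with the mean as bar, SD as error bar (n = 2) and libraries as points. The share of Psmb9 runs from 2.06% in control KD to 13.5% in GSTM1 KD after TNF-α, and the shares of Psmb10 and Psmb8 are higher after TNF-α in every library.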

How the data were processed

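RNA-seq was done on 8 libraries of cultured astrocytes, 2 per group, and each was assigned to a group and replicate by its label. The authors prepared strand-specific libraries, mapped reads to GRCm38 with STAR (version 2.5.4b) and deposited RSEM (version 1.3.0) expected counts, TPM and effective lengths in bases. Expected counts are estimates, not normalized, in which reads matching several genes are divided. Deposited TPM values are scaled by the authors to the same total in every library and were used only to describe levels per length. Whether counting used the strand is not given in the sources used here, so the 16 members that overlap another annotated gene are less certain.

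Expected counts were rounded and tested with edgeR (version 4.0.16, R version 4.3.3) by TMM scaling, filterByExpr, the quasi-likelihood F-test and Benjamini-Hochberg adjustment at 0.05 over all genes tested. The 2 knockdowns were compared within each state on its 4 libraries, and TNF-α responses and their difference were fitted to all 8. Standard errors were derived from the log2 fold change and F statistic of each gene, and 95% intervals from those errors with a t distribution. CPM values use TMM-scaled library sizes. With 2 libraries per group no rank or permutation test of one gene can pass 0.05. Non-overlap means that both libraries of one group lie above both of the other in CPM.

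Members, lists and tests were chosen with earlier results of these data known. Named with full values were members past the threshold or, where fewer than 3 passed, the 3 with the smallest p, then Psmb5, Psmb6 and Psmb7, members under the filter, Nfe2l1, Nfe2l2, Ddi2, the immunosubunits, up to 5 called genes of the pathway lists and Gstm1. Psmd3 was named as the highest value. Alternatives were DESeq2 (version 1.42.0), its size factors, library size alone, no filter or a minimum of 10 counts per library, a replicate block, edgeR's other quasi-likelihood method, effective lengths as offsets, all 8 or only 4 libraries, and leaving out each library. Promoter windows came from RefSeq (GRCm38.p6) and gene positions from GENCODE vM21. The list of ubiquitin shuttle receptors is not reported here as a whole.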

Additional observations from a re-analysis of the deposited data

How the results depend on the processing

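The members called between GSTM1 KD and control KD numbered 1 in each state. At the basal level they were 2 with DESeq2, 2 without the filter and 2 with a replicate block, Psmb3 joining Psmb6, and leaving out 1 library gave 0 to 9. After TNF-α they were 2 with DESeq2, 2 without the filter and 4 with the replicate block (Psma7, Psmb3, Psmb6 and Psmd8), and leaving out 1 library gave 0 to 6. The 0s were the fits without a GSTM1 KD library. Each of these fits that left out 1 library took its spread from the group that kept 2. No conclusion about members is therefore drawn from the counts of those fits. For the TNF-α responses, Psma6 was the 1 member called in each knockdown without the filter and with the replicate block, and in GSTM1 KD with its 4 libraries only. With the replicate block the responses of Nfe2l1 and Psmb9 in control KD also passed (adjusted p of 0.0438 and 0.0326). It called 4712 and 4302 of all genes in the basal and TNF-α comparisons, against 1524 and 2360, and 988 and 808 in the responses, against 403 and 406. Without the filter these counts were 3957, 4540, 1255 and 1050. DESeq2 called 2494 of 13487 genes (18.5%) at the basal level, 2835 of 13640 (20.8%) after TNF-α, and 738 and 629 in the responses. All 8 libraries gave 2762 at the basal level, and 4 libraries only gave 72 and 691 in the responses. The cause of these changes was not tested. Deviations of same-numbered libraries correlated at 0.22 to 0.69 between groups, but each comparison has only 2 pairs and no source says what a number marks, so that pairing is not established. Values near 0 that were not called changed sign. Psmb7 at the basal level became 0.016 with library size alone and 0.011 with effective lengths, where Psmb10 became −0.16. With TNF-α, Psmb5 in control KD became −0.021 with library size alone and −0.016 without the filter, Psmb7 in GSTM1 KD −0.0045 with library size alone, and the difference of responses of Psmd9 0.030 with effective lengths. Leaving out 1 library gave −0.12 to 0.10 for Psmb7 and −0.024 to 0.12 for Psmb10 at the basal level, −0.024 to 0.17 for Psmb7 and −0.24 to 0.33 for Psmb8 after TNF-α, −0.068 to 0.094, −0.12 to 0.069 and −0.15 to 0.058 for the responses of Psmb5, Psmb6 and Psmb7 in control KD, and −0.0059 to 0.13 for that of Psmb6 in GSTM1 KD. The member medians ranged from −0.20 to −0.0033 and from −0.17 to −0.031 between knockdowns, from −0.066 to 0.12 and from 0.024 to 0.094 for the responses, and from −0.061 to 0.13 for their difference. With 2 libraries per group the spread rests on few values, and the lowest count of any of the 34 members tested was 541, for Psmd9.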
